A study of Homo sapiens with 6 samples.

Results

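The vacuolar-type proton pump (V-ATPase) genes examined here are 10 listed members, matched by gene symbol from a list drawn up with earlier results of these data known: the membrane V0 subunits ATP6V0A1, ATP6V0B, ATP6V0C, ATP6V0D1 and ATP6V0E1, the cytosolic V1 subunits ATP6V1A, ATP6V1B2 and ATP6V1H, and the accessory proteins ATP6AP1 and ATP6AP2. All 10 were found among the 61552 genes of the tables, and all 10 passed the low-count filter that left 15063 genes for testing. The cells were wild-type NCI-H520, an established line from a squamous cell carcinoma of the lung. They received 2 µM cisplatin, a DNA-crosslinking platinum drug, or phosphate-buffered saline (PBS), each for 48 h. Each group held 3 libraries of 1 cell line, and the labels do not say whether they are separate cultures, so a p-value here reflects just the variation among these libraries, possibly technical.

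The V-ATPase is a rotary motor in the membranes of lysosomes, endosomes and the Golgi. Its V1 sector hydrolyses ATP in the cytosol and turns a rotor, and the V0 sector in the membrane carries protons into the organelle, which acidifies it and allows its hydrolases to work. The pump also forms part of the platform on which the growth kinase mTORC1 is activated at the lysosome, and several of its genes carry the E-box-like motif bound by the MiT/TFE transcription factors.

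Promoter sequences of 4 members are printed because they differ in that motif. Each is the strand of the gene in 5′ to 3′ direction, 100 bases that end just before a RefSeq transcript start (GRCh38.p14), and capitals mark CACGTG, the core of the E-box. The windows are chr1:43974860-43974959 on the plus strand for ATP6V0B, chr16:67481158-67481257 on the minus strand for ATP6V0D1, chrX:154428577-154428676 on the plus strand for ATP6AP1 and chr17:42458778-42458877 on the plus strand for ATP6V0A1.
ATP6V0B: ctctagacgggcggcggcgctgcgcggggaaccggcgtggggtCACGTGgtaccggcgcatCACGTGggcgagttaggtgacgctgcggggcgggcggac
ATP6V0D1: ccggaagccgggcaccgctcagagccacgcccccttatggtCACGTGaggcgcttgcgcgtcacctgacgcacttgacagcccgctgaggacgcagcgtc
ATP6AP1: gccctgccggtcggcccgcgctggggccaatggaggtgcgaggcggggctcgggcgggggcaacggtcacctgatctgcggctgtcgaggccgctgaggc
ATP6V0A1: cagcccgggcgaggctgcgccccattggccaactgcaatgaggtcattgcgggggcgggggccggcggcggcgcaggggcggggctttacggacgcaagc

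Windows from 250 bases before to 50 bases after the start were found for 6 of the 10 members, and CACGTG, which reads the same on both strands, was in those of 2. ATP6V0B had it at positions -57 and -39 from the start, and ATP6V0D1 had it at -59 in the longer form TCACGTGA. The motif was in 7.26% of all 35116 promoter windows and in 9.35% of the 16024 windows of tested genes, and TCACGTGA in 0.98% and 1.65% of the same windows. A match of letters describes the window only, and no match says only that the letters are not in it.

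Totals of 9925328 to 16724285 expected counts per cisplatin library and 9121180 to 15589897 per PBS library set the precision. Mitochondrially encoded genes took 3.26% to 4.13% of the counts in the cisplatin libraries and 4.15% to 6.05% in the PBS libraries. Of 7 squamous markers, SOX2 was at 3028 to 5872 counts per cisplatin library and 2520 to 4844 per PBS library, whereas TP63, the defining squamous factor, was at 1 to 2 counts under cisplatin and 0 to 3 under PBS and the desmosomal cadherin DSG3 was at 0 in every library. Of the 4 squamous markers tested 1 rose. Of all tested genes 18.9% rose and 19.3% fell, which is the background for every marker count here. Of 5 epithelial markers 4 rose (KRT8, KRT18, KRT19 and CDH1). The 5 summed to 2371 to 2410 TPM per cisplatin library and 2035 to 2324 TPM per PBS library. EPCAM, the remaining marker, was lower in every cisplatin library than in every PBS library but not called (log2 fold change -0.12, edgeR adjusted p = 0.194). After the transcript length correction described below, EPCAM was called lower (-0.26, edgeR adjusted p = 0.0104) and KRT18 was not called (0.14, edgeR adjusted p = 0.106). Of 15 fibroblast, immune and endothelial markers only COL1A1 and LYZ passed the low-count filter, and both were higher under cisplatin. The 6 fibroblast markers summed to 6.44 to 7.47 TPM in the cisplatin libraries and 4.32 to 6.12 TPM in the PBS libraries, with COL3A1 at 0 throughout, and the 5 immune markers summed to 2.91 to 3.70 TPM in the cisplatin libraries and 0.61 to 1.21 TPM in the PBS libraries, with PTPRC and CD3E at 0 throughout. The part of these marker differences in the results below was not tested.

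Cisplatin-treated NCI-H520 cells held more mRNA of most of the pump's listed parts. By edgeR (quasi-likelihood F test, p adjusted by Benjamini-Hochberg over all tested genes), 7 of the 10 members rose at an adjusted p under 0.05 and 0 fell. Of all tested genes 18.9% rose and 19.3% fell, 38.2% together. The 3 that did not pass were ATP6V0A1, ATP6V1A and ATP6AP2. The same 7 members had every cisplatin library above every PBS library in CPM, the counts brought to a common library size after TMM scaling. That arrangement was seen in 25.2% of all tested genes, and the opposite one, seen in 24.5%, in 0 members. The median log2 fold change of the members was 0.34, against -0.00035 over all genes tested. Every member's fold was below 2, the highest being 1.70 for ATP6V0D1. Bulk RNA does not tell more RNA per cell from a different mix of cells.

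**Figure D1:**
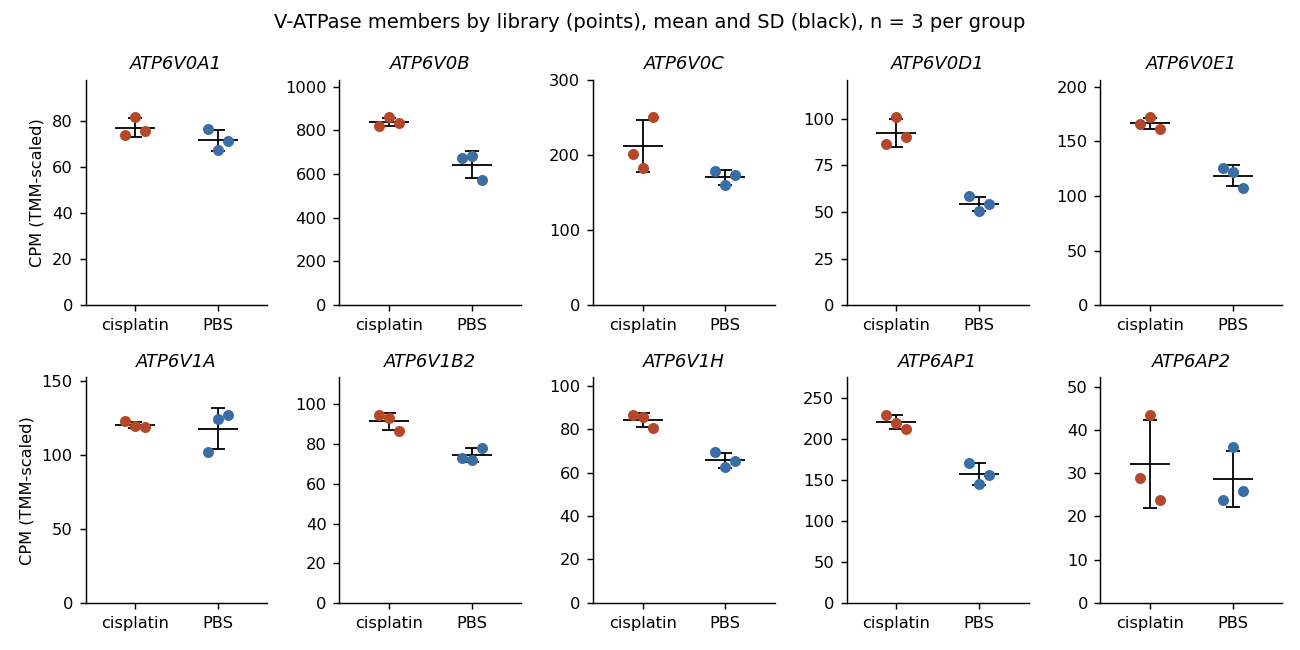
CPM of each V-ATPase member in every library (points; cisplatin red, PBS blue; black line and bars are the mean and SD of 3 libraries). The groups are apart in 7 panels and overlap for ATP6V0A1, ATP6V1A and ATP6AP2.

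Among the V0 subunits, ATP6V0D1 (ENSG00000159720; chromosome 16, 67438014 to 67481237, GRCh38) moved the most. It encodes the d subunit, which links the membrane ring to the central stalk of V1. It stood at 86.3, 101 and 90.0 CPM in the cisplatin libraries, against 58.4, 50.7 and 54.0 CPM in the PBS libraries. The lowest cisplatin library was well above the highest PBS library. On the log2 scale it rose by 0.77 ± 0.09 (SE), a 1.70-fold rise with a 95% interval of 1.49 to 1.94 (edgeR adjusted p = 6.0e-05).

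ATP6V0E1 (ENSG00000113732; chromosome 5, 172983757 to 173035445) encodes the small membrane e subunit. Its level was 166, 172 and 162 CPM under cisplatin, against 126, 122 and 107 CPM under PBS. Again no library of one group reached the other. The rise was 0.49 ± 0.08 on the log2 scale (edgeR adjusted p = 5.5e-04), or 1.40-fold with an interval of 1.25 to 1.58.

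ATP6V0B (ENSG00000117410; chromosome 1, 43974487 to 43978295) encodes the c″ proteolipid of the rotor ring, and its promoter holds the pair of CACGTG motifs shown above. It had 822, 859 and 831 CPM under cisplatin, against 674, 681 and 571 CPM under PBS. PBS replicate 3 was the lowest library, and the 3 cisplatin libraries lay close together. It rose by 0.38 ± 0.08 on the log2 scale (edgeR adjusted p = 0.0031), a 1.31-fold rise with an interval of 1.15 to 1.47. An unnamed gene on the opposite strand covers 8.54% of its exonic bases and held at most 19.1 counts in a library.

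ATP6V0C (ENSG00000185883; chromosome 16, 2513870 to 2520218) encodes the c proteolipid, the repeated unit of that ring. It had 202, 183 and 251 CPM under cisplatin, against 180, 160 and 173 CPM under PBS. Cisplatin replicate 3 stood out above the others, and cisplatin replicate 2 was close to the highest PBS library. Its log2 fold change was 0.31 ± 0.10 (edgeR adjusted p = 0.0312). Without cisplatin replicate 3 it was 0.18 (edgeR adjusted p = 0.154), and the call was also lost without cisplatin replicate 1 (0.0547), PBS replicate 1 (0.0506), PBS replicate 2 (0.0778) or PBS replicate 3 (0.0556); over 17 alternatives the adjusted p ran from 0.0015 to 0.345. Its 4 processed pseudogenes held at most 6 counts together in a library, against at least 1609 counts for the gene. An overlapping gene on the same strand that covers 57.5% of its exonic bases held at most 3.15 counts.

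ATP6V0A1 (ENSG00000033627; chromosome 17, 42458844 to 42522611) encodes a membrane a subunit, which forms the proton path against the ring. It had 73.7, 81.4 and 75.5 CPM under cisplatin, against 76.3, 67.1 and 71.0 CPM under PBS. The groups overlapped through PBS replicate 1. Its change was 0.11 ± 0.08 in log2 (edgeR adjusted p = 0.310), and the interval of the fold, 0.955 to 1.22, leaves room for a small change either way.

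Of the V1 subunits, ATP6V1H (ENSG00000047249; chromosome 8, 53715557 to 53843558) encodes the H subunit, which bridges V1 and V0 and holds back ATP hydrolysis by free V1. It had 86.5, 85.6 and 80.7 CPM under cisplatin, against 69.5, 62.5 and 65.1 CPM under PBS. All cisplatin libraries were above all PBS libraries. The gene rose by 0.36 ± 0.08 on the log2 scale (edgeR adjusted p = 0.0031), or 1.28-fold with an interval of 1.14 to 1.44.

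ATP6V1B2 (ENSG00000147416; chromosome 8, 20197367 to 20226819) encodes the B subunit, which alternates with A in the head of V1. Its level was 94.7, 93.0 and 86.8 CPM under cisplatin, against 73.3, 71.8 and 78.2 CPM under PBS. The groups did not overlap on this scale, and the rise was 0.30 ± 0.08 in log2 (edgeR adjusted p = 0.0089). On TPM (counts scaled by transcript length and to a fixed total) they did, and limma on log2(TPM + 1) did not call it (0.23, limma adjusted p = 0.214).

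ATP6V1A (ENSG00000114573; chromosome 3, 113747019 to 113812056) encodes the catalytic A subunit, where ATP is hydrolysed. It had 123, 120 and 119 CPM under cisplatin, against 102, 124 and 127 CPM under PBS. The cisplatin values lay inside the PBS range, and PBS replicate 1 was the lowest library. The log2 fold change was 0.03 ± 0.09 (edgeR adjusted p = 0.816), with a fold interval of 0.896 to 1.16, and it was -0.06 without PBS replicate 1. Its partner ATP6V1B2 rose, and the ratio of ATP6V1A to ATP6V1B2 TPM was 0.778, 0.760 and 0.817 in the cisplatin libraries and 0.846, 1.04 and 1.004 in the PBS libraries, without overlap. The ratio was formed after the values were seen and not tested. The transcripts differ in length, at 4553 and 2878 bases. After the transcript length correction described below, the intervals of their log2 changes overlapped (0.045 to 0.368 for ATP6V1A, 0.183 to 0.476 for ATP6V1B2).

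The accessory subunits differed from each other. ATP6AP1 (ENSG00000071553; chromosome X, 154428632 to 154436516) encodes a membrane glycoprotein of the V0 sector that helps its assembly. It had 229, 219 and 212 CPM under cisplatin, against 170, 145 and 156 CPM under PBS. The groups were apart, and the rise was 0.49 ± 0.08 in log2 (edgeR adjusted p = 5.4e-04), or 1.40-fold with an interval of 1.25 to 1.58.

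ATP6AP2 (ENSG00000182220; chromosome X, 40579372 to 40606848), also known as the (pro)renin receptor, was the least precise member. It had 29.0, 43.5 and 23.9 CPM under cisplatin, against 23.9, 36.0 and 25.9 CPM under PBS. In each group replicate 2 was the highest library. The log2 fold change was 0.14 ± 0.20 (edgeR adjusted p = 0.594), with a fold interval of 0.821 to 1.49, and it was -0.13 without cisplatin replicate 2. The estimated effective transcript length of ATP6AP2 differed up to 1.73-fold between libraries, from 1030 bases in PBS replicate 3 to 1782 bases in cisplatin replicate 2, more than for any other member. Its TPM therefore ordered the libraries differently, at 22.1, 25.1 and 15.1 under cisplatin and 16.4, 20.9 and 30.2 under PBS.

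Levels per transcript length were unequal across the pump. ATP6V0B led the members at 1300 ± 48.4 TPM under cisplatin and 1060 ± 10.9 TPM under PBS (SD, n = 3 each), above 99.1% of tested genes by its PBS mean. ATP6V0C came next, at 287 ± 38.8 TPM under cisplatin and 250 ± 30.5 TPM under PBS. The c″ transcript was thus 4.67, 5.33 and 3.80 times the c transcript in the cisplatin libraries and 4.25, 4.88 and 3.75 times in the PBS libraries. The order then ran through ATP6V0E1 (181 ± 2.95 TPM under cisplatin, 131 ± 3.41 TPM under PBS), ATP6AP1 (136 ± 6.66 and 102 ± 11.2 TPM) and ATP6V0D1 (75.6 ± 8.04 and 48.6 ± 5.98 TPM). ATP6V0D1 and ATP6V1H (58.5 ± 2.47 TPM under cisplatin and 43.8 ± 4.75 TPM under PBS) were apart in the cisplatin libraries and overlapped in the PBS libraries. ATP6V0A1, ATP6V1B2 and ATP6V1A were at 36.4 ± 2.81, 37.3 ± 2.34 and 29.2 ± 0.998 TPM under cisplatin and at 33.4 ± 1.59, 31.8 ± 4.48 and 30.8 ± 6.05 TPM under PBS, and under PBS these 3 overlapped one another. ATP6AP2 was last at 20.7 ± 5.12 TPM under cisplatin and 22.5 ± 7.01 TPM under PBS, also overlapping with ATP6V1A under PBS.

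**Figure D2:**
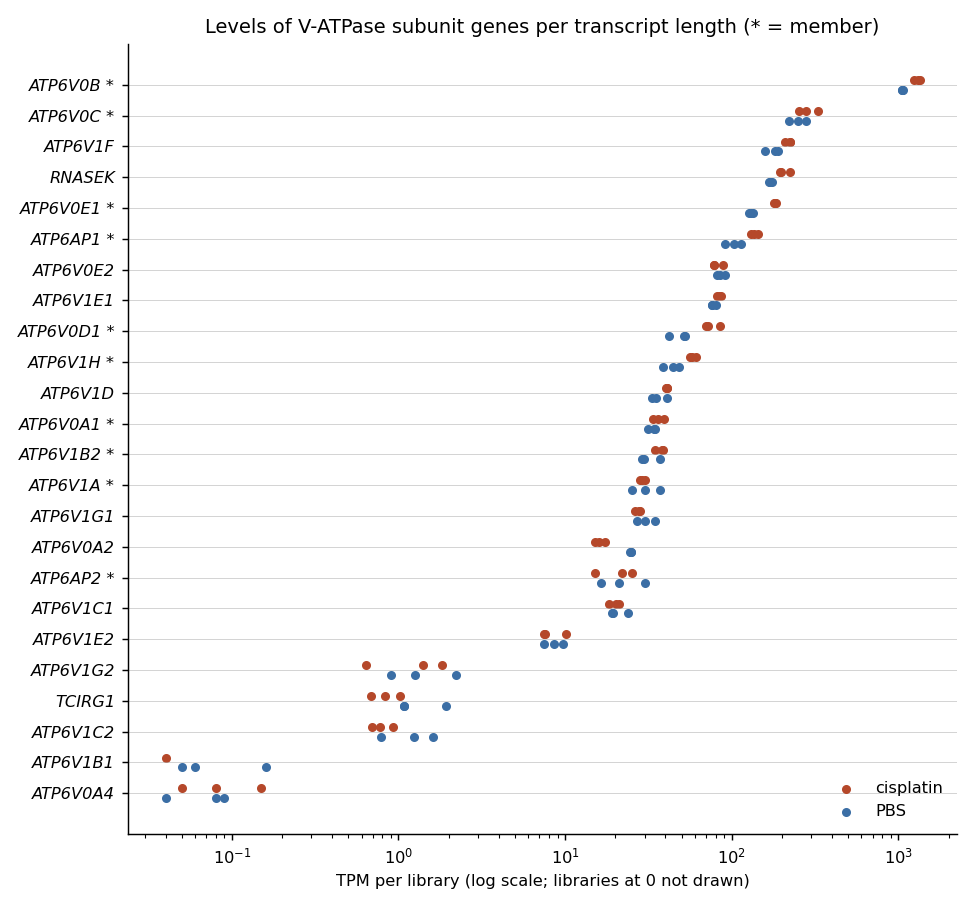
TPM per library (log axis) of the members (asterisk) and of other V-ATPase subunit genes, cisplatin red and PBS blue, ordered by the PBS mean. ATP6V0B lies at 1052 TPM or more in every library, and ATP6V0A4, ATP6V1B1, TCIRG1, ATP6V1C2 and ATP6V1G2 lie at or below 2.21 TPM.

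Summed over the 5 V0 members, TPM was 1878, 1900 and 1861 in the cisplatin libraries and 1524, 1496 and 1547 in the PBS libraries. ATP6V0B took 60.1% ± 1.43 of the sum of all 10 members under cisplatin and 60.5% ± 2.42 under PBS (SD, n = 3 each), so the sum follows that gene. Without it the other 9 members summed to 860, 844 and 882 TPM under cisplatin, against 688, 633 and 761 TPM under PBS. The 3 V1 members summed to 125, 126 and 124 TPM under cisplatin and to 99.5, 97.7 and 122 TPM under PBS, where PBS replicate 3 approached the cisplatin libraries.

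Some positions of the pump can be filled by paralogs. Of the 4 a subunit genes, ATP6V0A1 made up 64.7%, 71.2% and 68.1% of the summed TPM in the cisplatin libraries, against 56.9%, 55.1% and 56.1% in the PBS libraries. The remainder was mostly ATP6V0A2, an a isoform of Golgi and endosomal membranes, at 33.6%, 27.3% and 29.9% under cisplatin and 41.2%, 42.9% and 40.7% under PBS. The groups did not overlap, and the share of ATP6V0A1 was 11.9 percentage points higher under cisplatin (exact two-sided permutation test, p = 0.1, the smallest that 3 against 3 libraries allow; 0.3 after Benjamini-Hochberg adjustment over 6 shares). From counts per kilobase of 1 mean effective length per gene, the difference was 7.90 points. The estimated effective length of ATP6V0A2, which enters its TPM, was 3270, 3517 and 3384 bases in the cisplatin libraries and 2818, 2937 and 3285 bases in the PBS libraries. ATP6V0A2 mRNA itself fell, with 54.8, 51.6 and 53.5 CPM under cisplatin against 66.9, 70.5 and 68.3 CPM under PBS (log2 fold change -0.36 ± 0.07, edgeR adjusted p = 0.0026). TCIRG1, the osteoclast-type a3 isoform, was at 0.843 ± 0.170 TPM under cisplatin and 1.36 ± 0.485 TPM under PBS, and the renal ATP6V0A4 had 1 to 2 counts per library.

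At the e position, ATP6V0E1 made up 67.6%, 69.8% and 69.6% of the TPM of both e genes in the cisplatin libraries and 61.2%, 61.5% and 58.4% in the PBS libraries, a difference of 8.61 percentage points (exact permutation p = 0.1, the smallest possible; adjusted 0.3). ATP6V0E2 stood at 109 ± 5.44 CPM under cisplatin and 109 ± 5.31 CPM under PBS (log2 fold change 0.00 ± 0.07, edgeR adjusted p = 0.992; fold interval 0.895 to 1.12), and CACGTG is in 2 overlapping windows of its 3 promoter windows. ATP6V0C and ATP6V0B encode different units of the ring and are not alternatives to each other. ATP6V0C made up 18.1% ± 2.56 of their summed TPM under cisplatin and 19.0% ± 2.03 under PBS, a difference within the spread (exact permutation p = 0.7, adjusted 0.84). The alternatives to ATP6V0D1 and ATP6V1B2 were nearly silent: ATP6V0D2 had 0 counts in every library, and the renal ATP6V1B1 had at most 2.

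**Figure D3:**
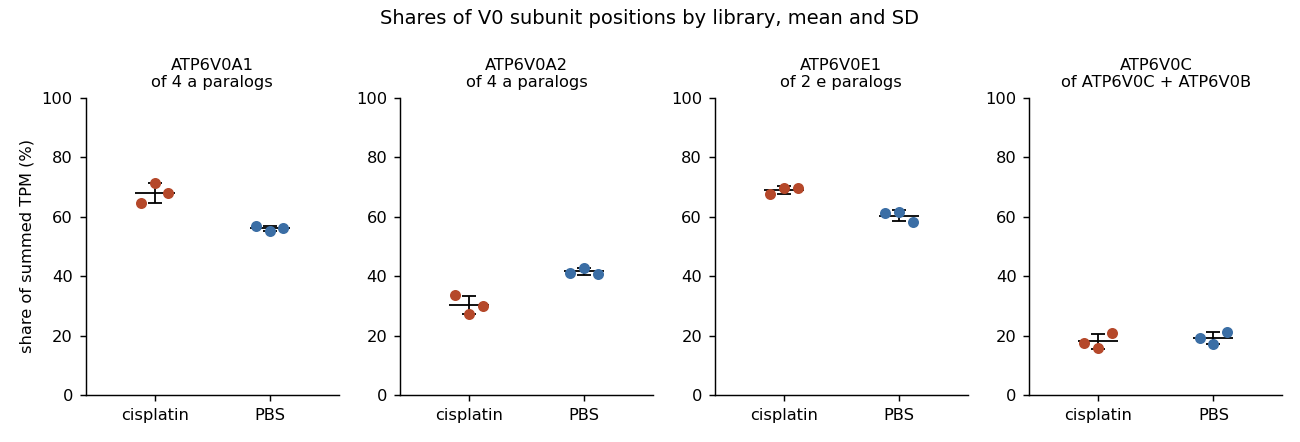
Share of the summed TPM in each library (points), with mean and SD of 3 libraries, cisplatin red and PBS blue. The sum is over the paralogs of a subunit position for ATP6V0A1, ATP6V0A2 and ATP6V0E1. For ATP6V0C it is over ATP6V0C and ATP6V0B, which encode different units of the ring. The groups are apart for ATP6V0A1, ATP6V0A2 and ATP6V0E1 and overlap for ATP6V0C.

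Of 16 other subunit genes 12 passed the low-count filter, and 4 rose (33.3%, against 18.9% of all tested genes) and 1 fell, against 19.3% of all tested genes. Their median log2 fold change was 0.12. The V1 stalk subunits ATP6V1F (0.43 ± 0.12, edgeR adjusted p = 0.0125), ATP6V1D (0.30 ± 0.09, 0.0196) and ATP6V1E1 (0.23 ± 0.07, 0.0273) rose, as did RNASEK (0.39 ± 0.12, 0.0177), which associates with the pump, and the one that fell was ATP6V0A2. None of the 4 rises was called after the transcript length correction described next, and none without cisplatin replicate 3. The other subunits called higher were 2 without cisplatin replicate 1 and 1 without PBS replicate 3, and without that PBS library 2 were called lower. ATP6V1F shares 23.7% of its exonic bases with KCP on the opposite strand, which held at most 25.1 counts in a library, and RNASEK shares 36.9% with a read-through gene that held at most 25.9 counts, against at least 552 and 425 counts for ATP6V1F and RNASEK. ATP6V1D is less certain: it shares 6.33% of its exonic bases with EIF2S1 on the opposite strand, which held up to 3401 counts, against at least 348 for ATP6V1D. ATP6V1G1, whose promoter also holds CACGTG, did not pass (0.19, edgeR adjusted p = 0.123).

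Fold changes in these libraries went with transcript length. The median log2 fold change was 0.20 among the shortest of 5 equal length classes of tested genes (up to 1382 bases) and -0.24 among the longest (from 3961 bases). ATP6V0B, at 998 bases, and ATP6V0C, at 1091 bases, are among the short transcripts, whereas ATP6V1A, at 4553 bases, is the longest member. With the trend of each library on length removed, 7 of the 10 members were again called higher, against 17.1% of all tested genes, and 0 lower, against 16.9%. The members called differed in 2 places: ATP6V0C dropped out (0.12, edgeR adjusted p = 0.345), and ATP6V1A was (0.21, edgeR adjusted p = 0.0483). ATP6V0D1 stood at 0.65 after the correction, ATP6AP1 at 0.43, ATP6V0E1 at 0.34, ATP6V1B2 at 0.33, ATP6V1H at 0.28 and ATP6V0B at 0.19 (edgeR adjusted p = 0.0323). ATP6V0A1 (0.11) and ATP6AP2 (0.06) did not pass.

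**Figure D4:**
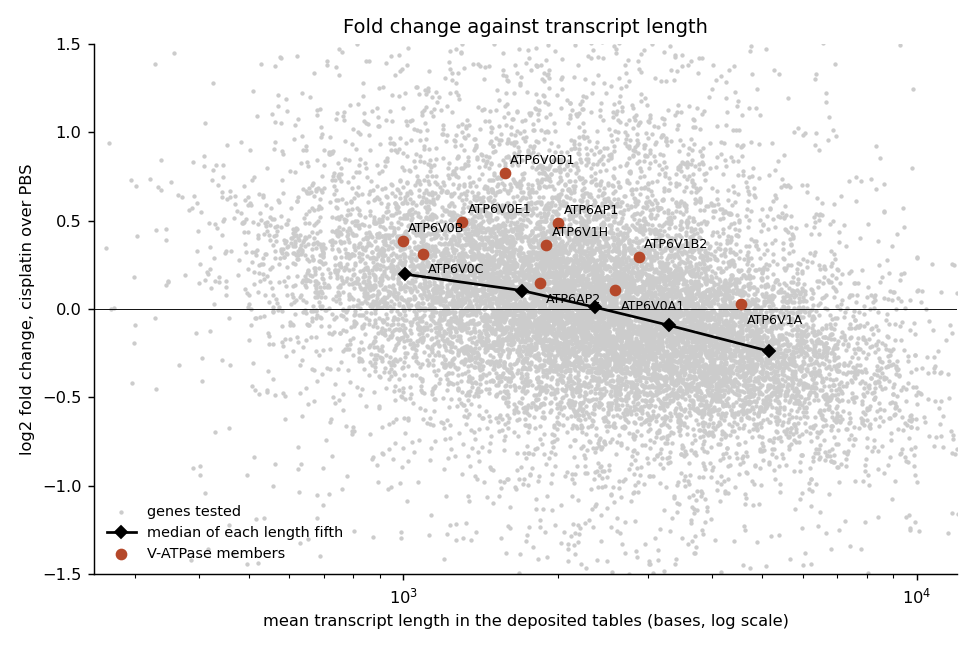
Log2 fold change of cisplatin over PBS against mean transcript length (log axis) for tested genes (grey; 340 of 15063 lie outside the axes), with the median of each of 5 length classes (black) and the V-ATPase members (red). The members lie above the black line at their length, ATP6V1A included.

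**Figure D5:**
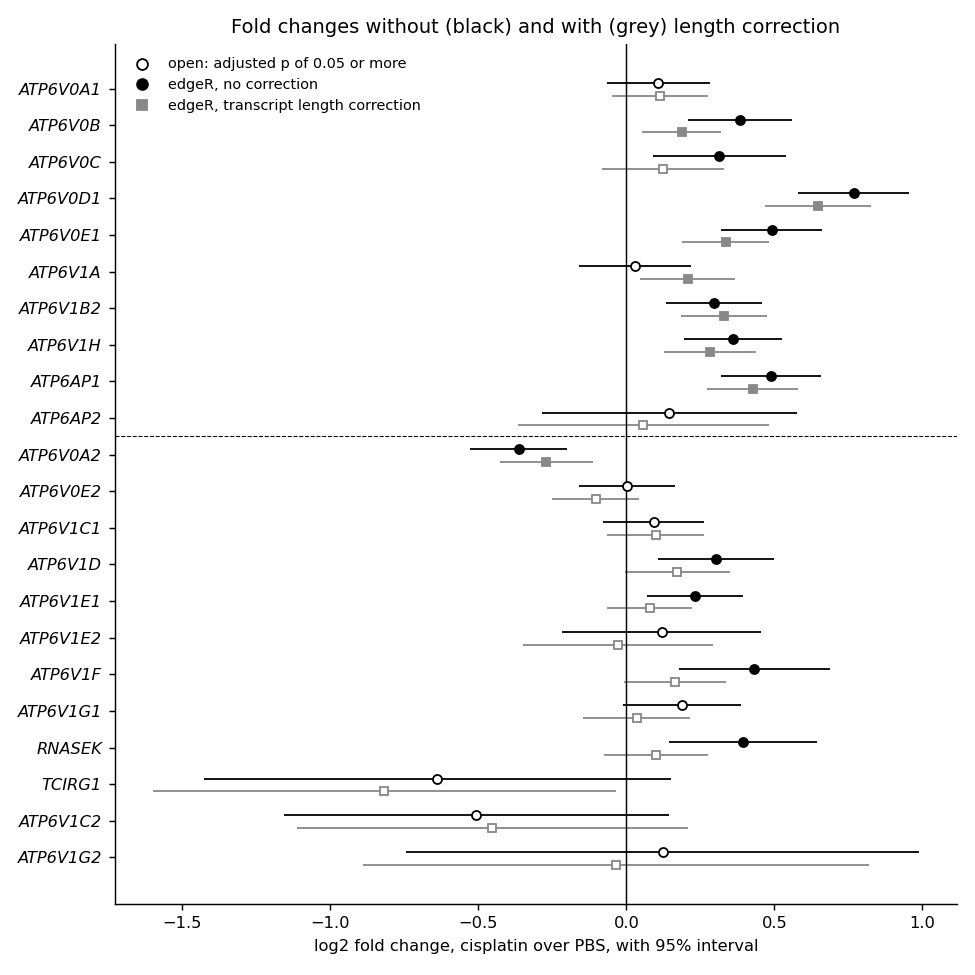
Log2 fold changes with 95% intervals without (black circles) and with (grey squares) the transcript length correction; open symbols have an adjusted p of 0.05 or more. Members are above the dashed line and other subunits below it. ATP6V0D1 has the highest value under both, and the ATP6V0A2 value is negative under both.

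Factors that assemble the pump were examined as a separate list. Of 11 genes for V0 assembly chaperones, the RAVE-like complex that joins V1 to V0 and TLDc proteins, some of which part them, 10 were tested, 1 rose and 4 fell, against 18.9% and 19.3% of all tested genes. The list's median log2 change was -0.31 without the length correction, and the longest of the 5 length classes of tested genes had a median of -0.24. That class starts at 3961 bases, and part of the list is shorter, such as DMXL1 at 3679 bases and OXR1 at 2145 bases. WDR7, of the RAVE-like complex, had 16.3 ± 1.06 CPM under cisplatin and 26.3 ± 0.787 CPM under PBS (log2 fold change -0.69 ± 0.10, edgeR adjusted p = 2.7e-04). Its transcript, at 5316 bases, is in that longest class, and with length corrected the change was -0.47 (edgeR adjusted p = 0.0035). The V0 assembly chaperone VMA21 had 194 ± 10.4 CPM under cisplatin and 253 ± 28.6 CPM under PBS (-0.38 ± 0.09, edgeR adjusted p = 0.0049), a call that the length correction ended (-0.21, edgeR adjusted p = 0.0583). MEAK7, a TLDc protein, had 9.75 ± 0.640 CPM under cisplatin and 6.17 ± 0.705 CPM under PBS (0.66 ± 0.15, edgeR adjusted p = 0.0038). With length corrected, DMXL1 (-0.29, edgeR adjusted p = 0.0411) and OXR1 (-0.37, 0.0296) were called lower besides WDR7, and MEAK7 was still called higher (0.83, 8.6e-04). WDR7, DMXL1, OXR1 and MEAK7 were not called by limma on log2(TPM + 1).

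Of 16 genes of the mTORC1 docking machinery that the pump contacts, 3 rose (18.8%, against 18.9% of all tested genes) and 2 fell, against 19.3% of all tested genes, counts at or below the background share. Their median log2 change was 0.10. The Ragulator subunits LAMTOR1 (0.44 ± 0.09, edgeR adjusted p = 0.0020) and LAMTOR5 (0.42 ± 0.08, 0.0020) rose. With length corrected, LAMTOR1 was still called (0.25) and LAMTOR5 was not (0.13, edgeR adjusted p = 0.306). The correction also called RRAGC (0.20, edgeR adjusted p = 0.0313) and RRAGD (0.33, 0.0270) higher and RRAGB (-0.54, 0.0231) lower. RRAGC and RRAGD were called under 4 of 17 alternatives and RRAGB under 1. FNIP2, a folliculin partner, fell by 0.66 ± 0.14 (edgeR adjusted p = 0.0031), also a call ended by the length correction (-0.37, 0.0536). The kinase MTOR was near the threshold (-0.24 ± 0.09, edgeR adjusted p = 0.0488) with overlapping groups, and its call was lost under 12 of 17 alternatives. With length corrected, its log2 change was -0.0012 (edgeR adjusted p = 0.993).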

How the data were processed

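Total RNA was extracted with TRIzol and made into libraries with an ABclonal kit, per the labels' protocols. The authors deposited 1 gene table per library with expected counts, which need not be whole and are not normalized, TPM, and transcript lengths, with RSEM-style columns, per the file headers. Alignment used STAR 2.7.9 and GRCh38 (hg38), per the submitters' processing notes; for the quantifier's version, annotation release and strand setting: not given in the sources used here, so overlapping genes on opposite strands cannot be told apart. The deposited FPKM values were not used.

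Symbols matched 61399 of 61552 gene identifiers; the rest held 0.0226% of the counts. Positions and exon overlaps came from GENCODE 29 and promoters from RefSeq (GRCh38.p14). Expected counts were rounded for edgeR 4.0.16 (R 4.3.3), with filterByExpr (minimum 10 counts, total 15), TMM, the quasi-likelihood test on the group, Benjamini-Hochberg adjustment over 15063 genes and calls under 0.05. Each SE is the log2 change divided by the square root of F, and 95% intervals include the spread between libraries. The length correction is a loess (span 0.3) of each library's log2 CPM deviations on log2 length, used as an offset. Alternatives also included other scalings and filters, DESeq2 1.42.0, limma 3.58.1 (voom, and log2(TPM + 1)), protein-coding nuclear genes, the replicate block and leaving out each library. The steps were tested on simulated data. That simulation changed fewer genes than were called here, and by larger folds than most members showed. No 2 libraries held the same counts. The chi-square per degree of freedom was 2.93 to 20.9 within groups and 17.8 to 42.1 between groups, ranges that overlap through PBS replicates 2 and 3. The members and lists were chosen with earlier results of these data known. Named were all members, paralogs of their positions, called other subunits, and up to 2 called genes per direction from each related list, or with none called the 2 most abundant. TFEB, MITF, TFEC, DMXL1, OXR1, RRAGB, RRAGC and RRAGD were named after their values were seen.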

Additional observations from a re-analysis of the deposited data

How the results depend on the processing

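Over 17 alternatives per member, ATP6V0D1, ATP6V0E1, ATP6V0B, ATP6V1H and ATP6AP1 kept their direction and their call. The members called higher were 7 in DESeq2 and with the replicate block, 6 to 7 when a library was left out and 5 by limma on log2(TPM + 1); 0 were called lower under any of them. Leaving out 1 library moved the log2 fold change of ATP6V0C between 0.18 and 0.42, of ATP6AP2 between -0.13 and 0.36 and of ATP6V1A between -0.061 and 0.082. On log2(TPM + 1), limma gave -0.10 for ATP6AP2, -0.057 for ATP6V1A, 0.20 for ATP6V0C and 0.23 for ATP6V1B2. The length correction gave 0.12 for ATP6V0C and 0.21 for ATP6V1A. The other subunits called higher were 4, but 0 to 4 without a library, 1 on log2(TPM + 1) and 0 after the length correction; those called lower were 1, and 1 to 2 without a library. Over all genes, limma on log2(TPM + 1) called 1208 higher and 1653 lower, against 2851 and 2901. The share of ATP6V0A1 was 7.90 points higher under cisplatin from counts per kilobase; leaving out a library moved the ATP6V0C share difference between -2.33 and 0.20 points and the ATP6V1G1 one between -1.17 and 1.36, with -0.022 from counts per kilobase. The cause of these shifts was not tested.

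The replicate numbers share no source in the labels, and same-numbered libraries did not deviate together (correlations 0.07, 0.12 and -0.08). With the replicate block, edgeR called 2853 genes higher and 2966 lower and the same number of members. ATP6AP2 had the fewest counts of the members, 214 to 547 per library, and the widest fold interval.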

Other observations

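Among 22 lysosomal membrane proteins and hydrolases, 11 rose and 0 fell in edgeR's quasi-likelihood test. Of all tested genes 18.9% rose and 19.3% fell. The median log2 fold change of the 22 was 0.21. The sterol carrier NPC2 had 95.7 ± 1.53 CPM under cisplatin and 44.3 ± 7.39 CPM under PBS (SD, n = 3 each; log2 fold change 1.12 ± 0.11, edgeR adjusted p = 2.4e-05), and the sialidase NEU1 had 57.0 ± 4.55 CPM under cisplatin and 26.9 ± 3.68 CPM under PBS (1.09 ± 0.11, edgeR adjusted p = 2.7e-05). Both were called under all 17 alternatives.

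Of the MiT/TFE transcription factors, TFE3 had 38.0 ± 1.29 CPM under cisplatin and 31.9 ± 2.48 CPM under PBS (0.25 ± 0.09, edgeR adjusted p = 0.0445), and its call was lost under 9 of 17 alternatives; over all 17 the adjusted p ran from 0.0120 to 0.436. TFEB had 6.11 ± 0.747 CPM under cisplatin and 5.15 ± 1.43 CPM under PBS (edgeR adjusted p = 0.270), MITF did not pass either (0.28, edgeR adjusted p = 0.237), and TFEC had 0 counts in every library.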
